A study of Mus musculus with 2 samples.

Results

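Open chromatin at the monoamine genes of mouse frontal cortex was described for 9 of the 21938 protein-coding genes of GENCODE M21 on mm10, chosen by name. They comprised 4 genes of synthesis (Th, Tph2, Ddc and Dbh), 3 of transport (Slc6a3, Slc6a4 and Slc18a2) and 2 of breakdown (Maoa and Maob). All 9 symbols were found in the annotation. The assay was DNase-seq, which maps open DNA by the places where DNase I, a nuclease, cuts it. Both libraries came from frontal cortex of female B6CASTF1/J mice (B6 x CAST F1 hybrids) taken at 10 days of age. The labels call them biological replicates 1 and 2 of 1 group with separate biosample entries and the same donor entry, so whether they came from separate animals is not stated, and a mark "3x" on both has no stated meaning. There was no treatment, genotype contrast or control group, so nothing here compares conditions, and values are set side by side between genes and between the replicates.

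Monoamine neurons make dopamine, noradrenaline and serotonin. Tyrosine hydroxylase (Th) and tryptophan hydroxylase (Tph2) carry out the first, rate-limiting steps, the decarboxylase Ddc completes dopamine and serotonin, and Dbh turns dopamine into noradrenaline. Slc18a2 loads the amines into vesicles, Slc6a3 and Slc6a4 take dopamine and serotonin back up after release, and the mitochondrial oxidases Maoa and Maob degrade them. The monoamine neurons that send axons to the cortex have their cell bodies mainly in the midbrain and brainstem. Oxidases are also made by cells resident in the cortex. DNase-seq reads nuclei, and whether any of this bears on the values below was not tested.

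The sequences on which the sites below turn come first. For Dbh, Slc6a4 and Maoa, the strongest site, which lay near but not over a start, is shown on the plus strand of GRCm38.p6 (mm10), at chr2:27164881-27165100, chr11:76997361-76997560 and chrX:16618421-16618720, with the bases that lay in a footprint of both libraries in capitals. A footprint is a short stretch inside open DNA with fewer cuts than its surroundings. They show how much of each site carried a footprint in both libraries.
Dbh upstream peak: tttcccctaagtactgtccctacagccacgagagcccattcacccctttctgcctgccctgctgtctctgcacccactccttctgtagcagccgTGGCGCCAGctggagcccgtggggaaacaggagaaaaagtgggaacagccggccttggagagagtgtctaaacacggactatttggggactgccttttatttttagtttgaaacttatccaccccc
Slc6a4 upstream peak: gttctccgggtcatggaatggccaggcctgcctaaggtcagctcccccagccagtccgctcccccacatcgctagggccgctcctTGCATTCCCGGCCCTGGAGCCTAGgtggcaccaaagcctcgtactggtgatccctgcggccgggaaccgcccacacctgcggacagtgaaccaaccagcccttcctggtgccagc
Maoa upstream peak: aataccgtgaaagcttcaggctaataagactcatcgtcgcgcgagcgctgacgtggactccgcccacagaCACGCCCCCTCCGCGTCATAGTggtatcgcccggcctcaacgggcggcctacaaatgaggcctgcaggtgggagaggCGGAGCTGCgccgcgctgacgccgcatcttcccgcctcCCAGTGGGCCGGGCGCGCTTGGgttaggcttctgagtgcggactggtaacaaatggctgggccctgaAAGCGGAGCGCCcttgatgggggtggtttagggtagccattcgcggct

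The next pair are intronic sites of Th at chr7:142894761-142894960 and of Ddc at chr11:11820301-11820520, both on the plus strand and both stronger than any site at a start of their own gene. Capitals mark the match to the consensus of CTCF, the zinc finger protein that bounds chromatin loops.
Th intronic peak: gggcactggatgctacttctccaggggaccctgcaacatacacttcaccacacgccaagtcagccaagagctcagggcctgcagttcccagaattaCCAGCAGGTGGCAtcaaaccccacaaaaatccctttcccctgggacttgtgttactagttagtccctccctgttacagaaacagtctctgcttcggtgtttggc
Ddc intronic peak: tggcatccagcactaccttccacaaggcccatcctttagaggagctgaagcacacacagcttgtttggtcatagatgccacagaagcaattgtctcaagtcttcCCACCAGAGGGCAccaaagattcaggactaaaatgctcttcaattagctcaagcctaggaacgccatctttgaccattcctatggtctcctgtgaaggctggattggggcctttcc

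The last set is RefSeq promoter sequence (GRCm38.p6), given on the strand of the gene with positions counted from the RefSeq start as 0, for 3 genes without and 2 with a peak at the start. They lie at chr7:142899996-142900095 on the minus strand (Th), chr19:59260778-59260881 on the plus strand (Slc18a2), chr10:115185023-115185122 on the minus strand (Tph2), chr13:73536597-73536746 on the plus strand (Slc6a3) and chr11:76998397-76998596 on the plus strand (Slc6a4). Capitals mark TGACGTCA (the cyclic AMP response element, CRE) in Th and Slc18a2, TATAAA, the TATA box letters, in Tph2 and GGGCGG on either strand (SP/KLF) in Slc6a3 and Slc6a4.
Th promoter: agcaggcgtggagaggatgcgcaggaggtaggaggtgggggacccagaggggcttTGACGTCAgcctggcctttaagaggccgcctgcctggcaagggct
Slc18a2 promoter: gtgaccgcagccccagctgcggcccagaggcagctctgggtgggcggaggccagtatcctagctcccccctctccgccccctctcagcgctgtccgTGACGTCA
Tph2 promoter: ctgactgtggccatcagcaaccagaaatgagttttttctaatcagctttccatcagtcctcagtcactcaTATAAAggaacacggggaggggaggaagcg
Slc6a3 promoter: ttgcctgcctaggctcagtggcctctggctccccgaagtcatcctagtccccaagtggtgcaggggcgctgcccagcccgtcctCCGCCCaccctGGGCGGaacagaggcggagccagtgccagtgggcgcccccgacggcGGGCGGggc
Slc6a4 promoter: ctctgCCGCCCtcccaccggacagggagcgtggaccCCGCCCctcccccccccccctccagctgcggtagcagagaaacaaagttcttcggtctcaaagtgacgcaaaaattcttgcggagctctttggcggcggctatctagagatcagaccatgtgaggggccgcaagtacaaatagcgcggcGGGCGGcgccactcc

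The longer deposited list of each library held 104654 peaks in replicate 1 and 81654 in replicate 2, with a median width of 200 bp in both and a median signal of 0.604 and 0.880. The signal of a peak is a deposited value of unstated scaling and the depth is unknown, so levels are compared between genes within a library. Over 61026 peaks shared 1 to 1, the median log2 difference in signal (replicate 1 minus replicate 2) was -0.25, with an SD of 0.32 across peaks. Among the 24 such pairs at the 9 genes, 19 lay within 1 SD of that median. Promoters of 8 of 8 cortical neuron marker genes had a peak in replicate 1 and 7 of 8 in replicate 2, in tissue labelled as frontal cortex. Of 15 regulators of monoamine neurons, 8 and 5 had one. Of all protein-coding genes, 66.1% and 63.3% had one. Lmx1a, Lmx1b, En1, Foxa2, Fev, Gata3 and Phox2a were at 0 in both libraries, and the summed signal of the list was 8.32 and 6.99. In bulk tissue, an open site in few cells cannot be told apart from weak access in many cells.

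Open promoters were those where a peak overlapped the 500 bp on either side of any annotated start of the gene, and promoter signal was that of the strongest such peak, or 0 with none. This held for 66.1% of all protein-coding genes in replicate 1 and for 63.3% in replicate 2. Of the 7 synthesis and transport genes, 3 had an open promoter in replicate 1 and 4 had one in replicate 2, while both breakdown genes were open in both. Tph2, Dbh and Slc6a3 were open in both libraries, Ddc in replicate 2 only, and Th, Slc6a4 and Slc18a2 in neither. With 7 and 2 genes and 1 group, this difference in shares was not tested.

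**Figure D1:**
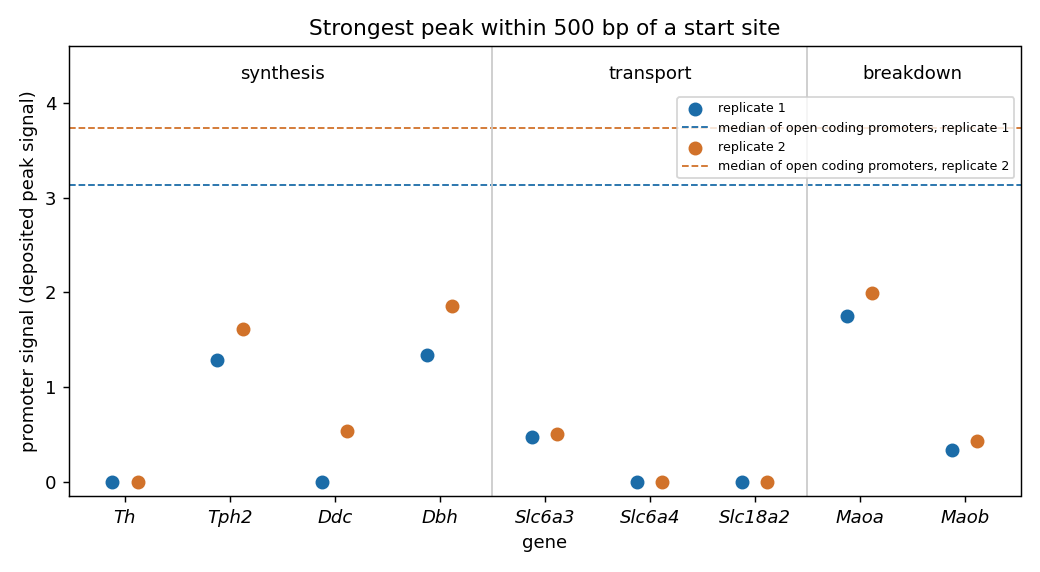
Promoter signal of each gene (vertical axis, deposited peak signal, linear) in replicate 1 (blue) and replicate 2 (orange), with dashed lines at the median of all open protein-coding promoters, 3.13 and 3.73. All 9 genes lie under the line of their library, and Th, Slc6a4 and Slc18a2 are at 0 in both.

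The median promoter signal was 0 in replicate 1 and 0.507 in replicate 2 over the synthesis and transport genes, against 1.04 and 1.21 over the breakdown genes. The same medians over all protein-coding genes were 1.38 and 1.56. The synthesis and transport median of replicate 2 is the value of Slc6a3. It was above 0 only because Ddc counted as open there, with 0.541 at an internal start and 0 at its gene start. The breakdown median is the midpoint of Maoa and Maob. The classes overlapped: the promoter signals of Tph2, Dbh and Slc6a3 lay above that of Maob and below that of Maoa in both libraries. Among the open promoters of the members, that of Maob was the lowest in both. Within each library the highest promoters ran from Maoa (1.75 in replicate 1 and 2.00 in replicate 2) to Dbh (1.34 and 1.86) to Tph2 (1.29 and 1.61), and the steps between them were not tested. At every start without a peak, no position with a false discovery rate of the cut rate under 0.05 was listed within 500 bp. Of all protein-coding genes, 66.9% and 64.1% had such a position near a start, close to the shares with an open promoter. The absence of these positions therefore adds little to the absence of a peak.

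Th (ENSMUSG00000000214.11, chr7:142892752-142931128, minus strand) had 6 annotated starts and no peak at any of them. The coding transcript Th-201 starts 31114 bp inside the annotated gene, and the nearest peak to that start lay 3106.5 bp upstream of it in replicate 1 and 3136.5 bp in replicate 2, centre to start. That peak was weak, at 0.448 and 0.575. The stronger Th sites lay in introns. The one printed above had 2.46 in replicate 1 and 3.23 in replicate 2, at or above 89.4% and 87.8% of all peaks of its library. It lay 1748.5 bp downstream of the start of Th-205, a transcript marked for nonsense-mediated decay, and away from every promoter window. Its CTCF match, at chr7:142894857-142894869, was covered by a footprint over all 13 bp in both libraries. The remaining site, with 2.04 and 3.10, lay 11.7 kb inside the gene from the outermost start, and thus upstream of the Th-201 start. All 3 sites were present in both libraries, so the tyrosine hydroxylase gene as annotated had open DNA in its body while no start was open. Of these sites, only the printed one lay downstream of the Th-201 start.

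Tph2 (ENSMUSG00000006764.8, chr10:115078641-115185022, minus strand) had its strongest site over the start of the coding transcript Tph2-201. Its signal was 1.29 in replicate 1 and 1.61 in replicate 2, higher than in 22.7% and 21.8% of open protein-coding genes. The peak overlapped the first exon, with coding and untranslated sequence, and its centre lay 81.5 and 51.5 bp downstream of the start. It held 3 footprints in replicate 1 and 4 in replicate 2. A TATAAA match lay at -30 to -25 of the RefSeq start, which is the GENCODE start, and 13.6% of all promoter windows hold one. This match lay inside the peak of replicate 2, with no footprint over it, and outside the peak of replicate 1. Further in, intronic sites of 0.792 and 0.880 lay 13.4 kb, and of 1.09 and 1.25 lay 87.7 kb, from the start. The start of Tph2-202, a processed transcript 9464 bp into the gene, had no peak.

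Ddc (ENSMUSG00000020182.16, chr11:11814101-11898144, minus strand) had 10 starts, of which none was open in replicate 1 and 1 in replicate 2. That one belonged to Ddc-206, a processed transcript that starts 75223 bp into the gene. The peak there had a signal of 0.541, a lowest false discovery rate of 0.0196 and no footprint, its edge was 454 bp from the start, and it was missing from the other library. From the outermost start of the gene the nearest peak was 24.9 kb away in replicate 1 and 29.7 kb in replicate 2. The start of coding transcript Ddc-202 had its nearest peak at 17192 and 21991 bp. The open call for this decarboxylase gene therefore came from an internal noncoding start in 1 library.

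The strongest peak in the Ddc window, with 6.10 and 8.02, was at the start of its neighbour Fignl1, in the flank. Inside the gene, the intronic site printed above was the strongest, with 1.91 in replicate 1 and 2.29 in replicate 2. A footprint covered all 13 bp of its CTCF match, at chr11:11820405-11820417, in both libraries. Matches to this consensus lay in the central 200 bp of 6.26% of the peaks of replicate 1 and 7.18% of those of replicate 2, so the pair at Th and Ddc is a description of these 2 sites. Weak peaks in the body of Ddc at the start of the antisense gene 1700042O10Rik had signals of 0.453 and 0.323 in replicate 1 and 0.496 in replicate 2.

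Dbh (ENSMUSG00000000889.8, chr2:27165233-27183200, plus strand) was counted as open through a peak that touched no start. The signal of its strongest peak was 1.34 in replicate 1 and 1.86 in replicate 2, above 23.8% and 25.5% of open protein-coding genes. The centre lay 242.5 and 262.5 bp upstream of the start of the coding transcript Dbh-201, and the near edge 133 and 153 bp upstream. RefSeq places the Dbh start 274 bp further downstream, at chr2:27165507, which puts the near edge 407 and 427 bp away. The 300 bp RefSeq promoter window, from 250 bp before to 50 bp after that start, therefore held no peak in either library. Of the annotated starts of all genes, Dbh-201 was the nearest to this peak. With a window of 100 bp in place of 500 bp, Dbh was open in neither library.

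A companion peak upstream, centred 1192.5 bp before Dbh-201 in replicate 1 and 1192 bp in replicate 2, had 0.865 and 1.29. Its nearest start was also that of Dbh-201. The antisense gene Dbhos starts at chr2:27162703 and is transcribed away from Dbh. A peak of 0.839 lay 81.5 bp from its start in replicate 1, with 3 footprints, and none was called there in replicate 2. The processed transcript Dbh-202 starts 11860 bp into the gene and had no peak at its start. An intronic peak of 0.734 and 0.880 lay 2226 and 2222.5 bp beyond it. So of the Dbh peaks seen in both libraries, 2 were nearest to Dbh-201 and 1 to Dbh-202, and none overlapped a start. In the strongest one, 9 bp were footprinted in both libraries, from -258 to -250 of the Dbh-201 start (capitals in the sequence above).

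**Figure D2:**
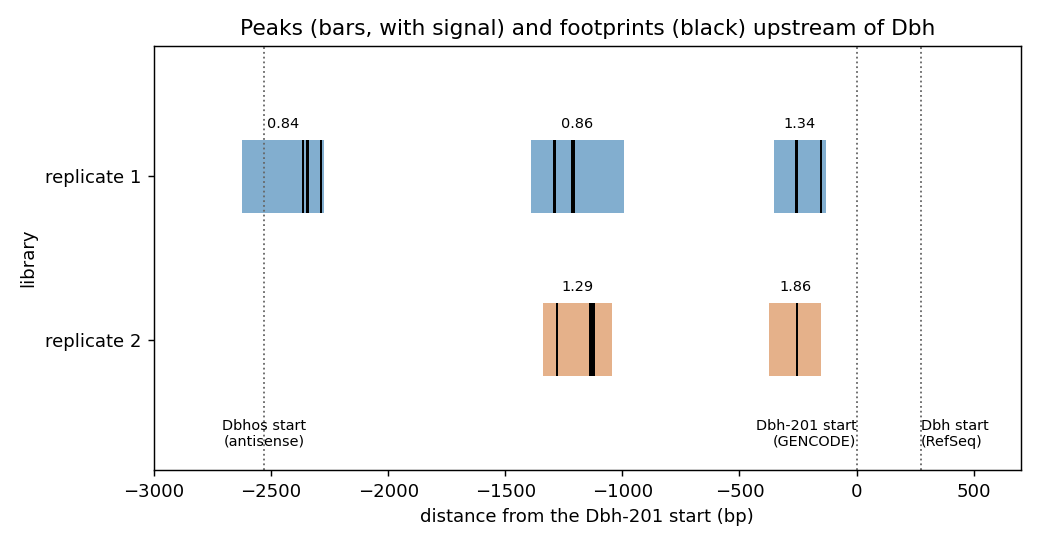
Peaks upstream of Dbh by distance from the Dbh-201 start in bp (horizontal axis), replicate 1 in blue and replicate 2 in orange, with the deposited signal over each bar, footprints in black (narrow ones widened to 8 bp) and starts as dotted lines. The strongest peak of each library, 1.34 and 1.86, lies upstream of both the GENCODE and the RefSeq start and overlaps neither, and the peak at the Dbhos start appears in replicate 1 only.

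Among the transporters, Slc6a3 (ENSMUSG00000021609.6, chr13:73536747-73578672, plus strand), the dopamine transporter gene, was the one with a peak over its start. Its signal was 0.479 in replicate 1 and 0.507 in replicate 2, above 5.31% and 2.64% of open protein-coding genes, so it ranked low among them. The centre lay 36.5 and 50 bp upstream of the start, and the peak held 2 footprints in replicate 1 and 0 in replicate 2. It spanned 3 GGGCGG matches, at -66 to -61, -55 to -50 and -9 to -4, of which the first lies on the minus strand. A second peak over a coding exon, 30.9 kb from the start, had 0.208 and 0.350.

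Slc6a4 (ENSMUSG00000020838.12, chr11:76998603-77032340, plus strand), the serotonin transporter gene, had 1 peak in its whole window and none at its 4 starts. The signal was 1.13 in replicate 1 and 1.29 in replicate 2, higher than the dopamine transporter promoter in both libraries. Its centre lay 1142.5 and 1102.5 bp upstream of the outermost start. A stretch of 24 bp, from -1157 to -1134, was footprinted in both libraries. The start itself had 3 GGGCGG matches, at -195 to -190, -164 to -159 and -15 to -10 of the RefSeq start, a CpG observed/expected ratio of 0.816 and no peak. Across the promoter windows 35.7% hold a GGGCGG match.

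Slc18a2 (ENSMUSG00000025094.8, chr19:59260896-59296012, plus strand), the vesicular transporter gene, also had a single peak. It was intronic, 6.61 kb inside the gene in replicate 1 and 6.60 kb in replicate 2, with 0.50001 and 0.643 signal units. It held 1 footprint in each library. The TGACGTCA match at its RefSeq start ran from -4 to 3, and that of Th from -45 to -38 of its own, and 1.79% of all promoter windows hold one. Neither gene had a peak at the match.

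Maoa (ENSMUSG00000025037.6, chrX:16619698-16687818, plus strand) had the highest promoter signal of the 9 genes. The peak over its only annotated start had 1.75 in replicate 1 and 2.00 in replicate 2, with 5 and 4 footprints, and lay above 30.04% and 27.4% of open protein-coding promoters. Among open genes on the X chromosome, where 51.1% and 48.1% of 948 genes had an open promoter, it lay above 53.7% and 53.3%. The stronger Maoa site was the one printed above, centred 1127.5 and 1117.5 bp upstream of the start. That site had 3.02 and 3.88, at or above 91.7% and 90.4% of all peaks. It held 30 and 29 CpG sites and 4 footprints in each library. In all, 4 stretches of 22, 9, 22 and 12 bp were footprinted in both.

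Maob (ENSMUSG00000040147.14, chrX:16709282-16817366, minus strand), which lies tail to tail with Maoa, had a weaker start. The peak covered all 3 of its annotated starts and had 0.339 in replicate 1 and 0.429 in replicate 2, above 2.06% and 1.54% of open protein-coding promoters. Among open X-linked genes it lay above 7.02% and 6.58%. An intronic peak 51.0 kb inside the gene was about as strong, with 0.375 and 0.417, and another at 105.6 kb had 0.208 and 0.237. Footprints numbered 7 in replicate 1 and 1 in replicate 2. Maob is known from astrocytes and serotonin neurons. Of 6 astrocyte markers 6 and 4 were open, beside 66.1% and 63.3% of all protein-coding genes. The markers had a summed signal of 5.96 and 5.9996, with Aldh1l1 and Aqp4 at 0 in replicate 2. Their part in the Maob signal was not tested.

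**Figure D3:**
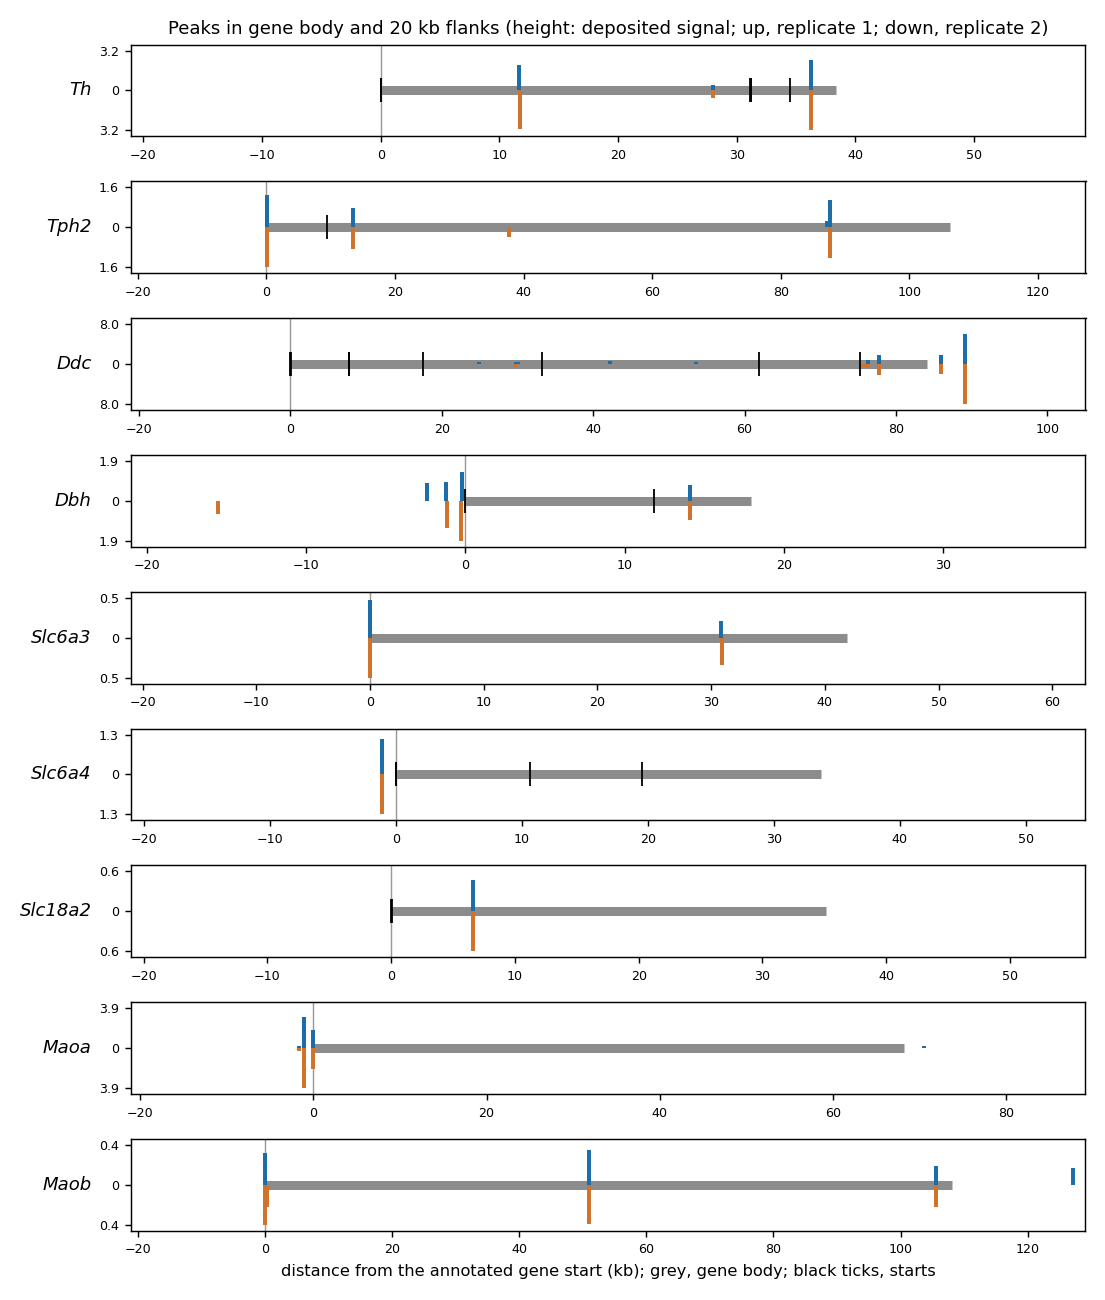
Peaks in the body of each gene and its 20 kb flanks by distance from the annotated gene start in kb (horizontal axis, direction of transcription to the right), with bar height the deposited signal, upward for replicate 1 and downward for replicate 2, scaled to each gene. Tph2 and Slc6a3 have their strongest peak over the gene start and Dbh has its own just upstream of it, while in Th, Slc6a4, Slc18a2 and Maoa it lies away from a start, and the tall bar right of Ddc is the Fignl1 start.

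Peaks were sparse at most of the 9 loci. Over gene bodies with 20 kb flanks, the synthesis and transport genes had a median of 2.73 peaks per 100 kb in both libraries, with a range of 1.33 to 7.26 in replicate 1 and 1.33 to 6.90 in replicate 2. The breakdown genes had 3.20 and 2.74, and the order of the classes reversed when the flanks were left out. All protein-coding genes had a median of 6.27 and 5.08, and X-linked ones 2.69 and 2.17. In replicate 1, 7 of the 9 genes lay under the median of all genes and in replicate 2 8 did. Dbh lay above it in both, with 6.90 per 100 kb in each, and Ddc in replicate 1 only, with 7.26.

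**Figure D4:**
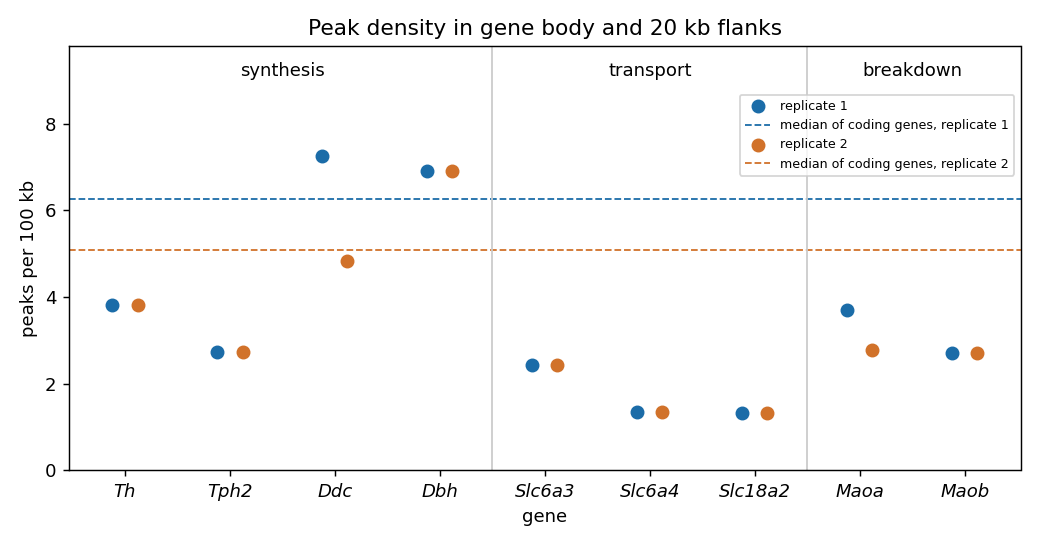
Peaks per 100 kb of gene body and 20 kb flanks (vertical axis, linear) for each gene in replicate 1 (blue) and replicate 2 (orange), with dashed lines at the medians of all protein-coding genes, 6.27 and 5.08. Dbh lies above the line in both libraries and Ddc in replicate 1 only.

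The 7 synthesis and transport genes held 24 peaks in replicate 1 and 21 in replicate 2. Of these, 3 and 4 were at a start of their own gene, 4 and 2 at a start of another gene and 17 and 15 at neither. Of their peaks, 18 in each library overlapped one of the other, or 75% and 85.7%. Breakdown genes held 7 peaks in each library, 6 of them shared, with 2 and 3 at an own start. One weak peak of replicate 1, at chrX:16690171-16690200 with 0.177, lay in the flanks of both Maoa and Maob and is counted once in these sums and in the density of each gene. Footprints summed to 74 and 53 over the 9 genes, and 8 of the 9 had fewer per 100 kb than the medians of all genes, 20.6 and 13.7, the exceptions being Ddc in replicate 1 and Th in replicate 2. The footprint lists differ in length between libraries, 293484 against 187137, so footprint numbers are compared within a library.

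Promoter CpG content differed among the members. The CpG observed/expected ratio was taken over 300 bp RefSeq windows, which were found for 8 of the 9 genes, with 2 for Ddc, among 32851 in all. Split into 5 equal groups by this ratio, the share of all windows with a peak rose from 4.32% and 3.18% in the lowest to 93.5% and 91.5% in the highest. Maoa (0.602), Slc6a3 (0.620) and Tph2 (0.542) lay in group 4, where 80.6% and 77.5% of windows had a peak, and each had one. Dbh (0.0916) lay in the lowest group, both Ddc windows (0.164 and 0.228) in the next, and Th (0.484) and Slc18a2 (0.398) in the middle one, where 33.3% and 28.8% had a peak, and none of these windows did. Slc6a4 (0.816) lay just above the lower bound of the highest group (0.811) and had none.

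**Figure D5:**
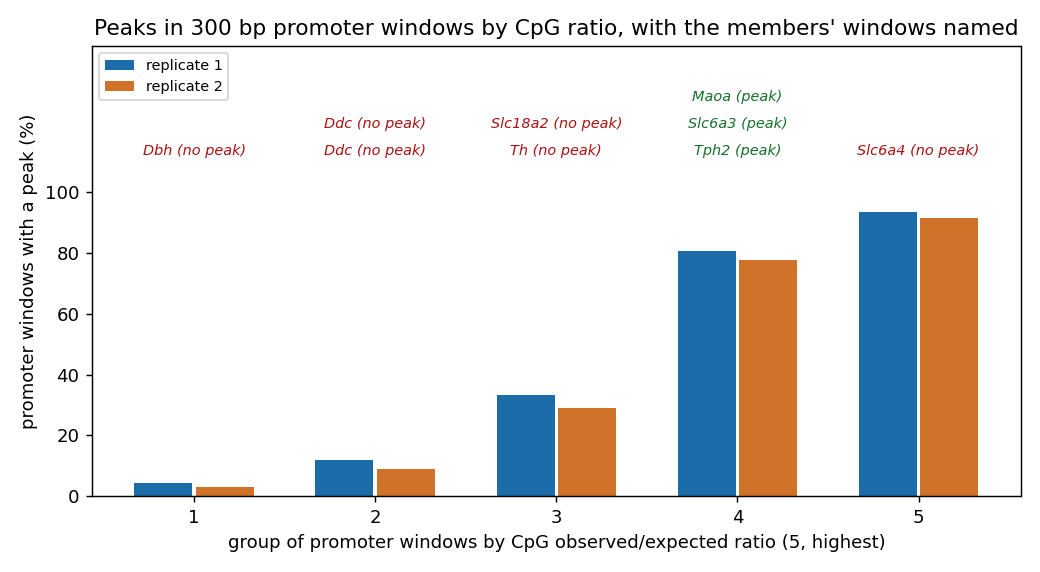
Share of 300 bp RefSeq promoter windows with a peak (vertical axis, percent, from 0) in 5 equal groups by CpG observed/expected ratio (horizontal axis, 5 the highest) in replicate 1 (blue) and replicate 2 (orange), with the windows of the members named over their group, green with and red without a peak in both libraries. Slc6a4 has no peak in a group where 93.5% and 91.5% of windows have one.

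Of 21 other genes of the pathway, 16 had an open promoter in replicate 1 and 15 in replicate 2, with 14 in both, beside 66.1% and 63.3% of all protein-coding genes. All 6 genes of the list for tetrahydrobiopterin, the cofactor of Th and Tph2, were open in replicate 1 and 5 in replicate 2. Pts, which makes a precursor of it, had 5.90 and 8.14, and Qdpr, which regenerates it, 4.71 and 4.89. Gch1, the first enzyme of its synthesis, had 1.46 and 1.35, and its regulator Gchfr had 0.609 and 0. Of the other synthesis genes, Tph1 had 0.313 and 0.654 and Hdc, the histamine enzyme, 0.354 and 0.429, both at starts other than the annotated gene start, and Pnmt, which makes adrenaline, was at 0 in both.

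Of 6 other transporters, 4 were open in each library and 3 in both, beside 66.1% and 63.3% of all protein-coding genes. Slc18a1, the other vesicular amine transporter, had 8.08 and 9.56, but the same peak lay at a start of Atp6v1b2, so the signal cannot be assigned to either gene. Slc29a4, a low-affinity amine carrier, had 1.31 and 1.66, and Slc22a3, another, 0.510 and 0.530. Slc6a2, the noradrenaline transporter gene, had 0.255 in replicate 1, at a start other than the annotated gene start, and 0 in replicate 2. Of 6 other breakdown genes, 4 were open in both libraries, beside the same shares of all protein-coding genes. Aldh2, which oxidises the aldehydes that the oxidases form, had 2.06 and 2.03, and Akr1b3 had 3.46 and 4.17. Hnmt, which methylates histamine, had 0.865 and 1.21, at a start other than the annotated gene start.

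All 6 coding neighbours of the members that were listed had open promoters in both libraries, beside 66.1% and 63.3% of all protein-coding genes. The median signal of all open protein-coding promoters was 3.13 in replicate 1 and 3.73 in replicate 2. Fignl1 beside Ddc had 6.10 and 8.02, Tbc1d15 beside Tph2 6.82 and 7.76, and Pdzd8 beside Slc18a2 3.76 and 4.33. On either side of Slc6a4, Blmh had 4.49 and 5.72 and Nsrp1 4.46 and 3.89. Each of these exceeded every promoter signal of the 9 genes in the same library. Sardh, beside Dbh, had 1.84 and 1.74, against 1.34 and 1.86 at Dbh. Neighbours were listed by position after the values were seen.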

How the data were processed

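DNase-seq of 2 libraries of 1 group was used. Per the files deposited with them, the authors called peaks, footprints and cut rates per library in mm10. Aligner, callers and thresholds: not given in the sources used here. Deposited peak signal has no stated scaling. The deposited false discovery rate (a p-value type of measure) lists positions under 0.05. The score the authors deposited with each footprint was 0.01 throughout, so footprints serve as positions only. Read totals were not analysed here.

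Peaks of the longer list of each library were placed against GENCODE M21 with pandas 2.3.3 and bedtools 2.31.1 (minimum overlap 1 bp). Density counts peak centres. Sequence was read with pysam 0.24.0. Besides the motifs spelt in the report, TGANTCA (AP-1), AAAGGTCA (NBRE), CCGGAAG (ETS), TTGGCA (a short NFI match), CCAAT, NRF1 and NFI were searched on both strands. The overlap code was tested on simulated data. No test was run: 2 libraries of 1 group give no contrast. All 9 members are named, and other pathway genes where open in either library or where a list holds few; 1 gene of these lists is not reported here. Members and lists were chosen with earlier results of these data known. Alternatives covered the peak list, peak strength, reciprocal overlap, window, start sites, flank and single libraries.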

Additional observations from a re-analysis of the deposited data

How the results depend on the processing

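The 3 synthesis and transport promoters open in both libraries became 6 with a 2000 bp window, which added Th, Ddc and Slc6a4, and were 2 with the shorter list, the strongest 50% of peaks or a 100 bp window. With single libraries the count was 3 to 4. Both breakdown promoters stayed open except with the strongest 50% of peaks, which left 1, Maoa. The median of 2.73 peaks per 100 kb at synthesis and transport genes was 3.76 without flanks, 5.79 with 100 kb flanks, and 2.05 with the shorter list, with the strongest 50% of peaks and with 50% reciprocal overlap. For breakdown genes, the mean of the libraries of 2.97 became 2.35, 2.32, 1.60, 0.925 and 2.40 in the same order, and 2.74 to 3.20 with single libraries. Which class was denser thus changed with the flank and the peak list. The strongest Dbh peak, at -252.5 bp from the gene start, was at 14084.2 bp without flanks, which leave out the upstream peaks, and at -93907.5 bp with 100 kb flanks, which widen the search. Without flanks, no footprint was left at Dbh or Slc6a4. No paired analysis was possible because the study has 1 group. Access too weak for a listed peak or cut-rate position was not detectable at the closed starts.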
